A study of Mus musculus with 6 samples.

Results

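The replication-dependent histone genes of the embryonic mouse palate were followed in RNA-seq counts. They were chosen by symbol alone, as every gene named Hist1 to Hist4 followed by h1, h2a, h2b, h3 or h4 in the older mouse nomenclature, which gave 68 of the 23366 genes listed. By class these were 6 H1 genes, 18 H2A genes, 19 H2B genes, 12 H3 genes and 13 H4 genes. In the GENCODE M21 annotation, whose symbols matched all 68, 54 lay on chromosome 13, 10 on chromosome 3, 3 on chromosome 11 and 1 on chromosome 6. One of them, Hist3h2bb-ps, was annotated as a pseudogene. The tissue was paired palatal shelves dissected at stage E14.25. The 3 wild type libraries, numbered 2, 3 and 4, carry the genotype label WT, without a statement on Cre or floxed alleles. The 3 knockout libraries, numbered 1, 2 and 3, are labelled Kmt2d fl/fl Wnt1-Cre, in which Cre under the Wnt1 promoter acts in the neural crest, so cells of other origin in the shelf keep the gene. Kmt2d encodes a methyltransferase for histone H3. Values per library below follow the order of these numbers, wild type first. The design compares the knockout with the wild type, here for the genes that encode histones.

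Replication-dependent histone genes supply the proteins that package newly copied DNA. The core histones H2A, H2B, H3 and H4 form the nucleosome, and H1 binds the linker DNA between nucleosomes. Their transcripts build up in S phase and are unusual in ending in a conserved stem-loop instead of a poly(A) tail, where the stem-loop binding protein Slbp attaches. Some members also make polyadenylated transcripts, mainly in cells that have left the cell cycle. The libraries were made with a stranded mRNA kit, which favours poly(A) RNA, so a count of these genes is not a direct measure of their full transcript pool.

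The stem-loop is shown because it decides how these transcripts end and because it differed between classes. The pattern searched, on the transcript strand, was GG, any 2 bases, CTTTT, any base, AG, any 2 bases and CC, and 43 of the 68 longest GENCODE M21 transcripts of the members held it. Of all 141767 GENCODE transcripts, 0.0875% held it. Of the 25 members without it, 12 had a transcript annotated with at most 20 bases besides the coding sequence, so no match there says little. Capitals mark the stem, read 5′ to 3′ as DNA.
Stem-loop of 25 members, among them Hist1h1d, Hist1h1e and Hist3h2a: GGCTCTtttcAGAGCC
Stem-loop of 6 members, among them Hist1h3f and Hist1h2bb: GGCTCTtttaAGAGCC
Stem-loop of 7 H4 members, among them Hist1h4d and Hist4h4: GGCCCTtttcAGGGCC
Stem-loop of 2 H4 members, Hist1h4b and Hist1h4j: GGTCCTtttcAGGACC
The stem letters separated the classes: the 11 H4 genes with a match had GGCCCT or GGTCCT, and the 32 genes of the other classes with a match had GGCTCT.

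Promoters also differed by class. RefSeq windows (GRCm38.p6, 250 bases before to 50 after the start) were found for 61 members and searched on both strands. The CCAAT box, letters CCAAT, occurred in every window of the H1 (6), H2A (17), H2B (16) and H3 (10) genes but in 3 of 12 H4 windows, against 37.4% of all 32851 windows. The octamer, ATTTGCAT, was found in 7 of 17 H2A and 6 of 16 H2B windows, in 0 windows of the other classes and in 1.74% of all windows. TATAAA, the TATA box, was found in 4 of 6 H1, 11 of 17 H2A, 8 of 16 H2B, 4 of 10 H3 and 8 of 12 H4 windows, against 13.6% of all windows. These are matches of letters and do not show that a factor binds. The 150 bases before the start are given for an H1, an H2B and an H4 gene described below, with these motifs, on either strand, in capitals. The build is that of the RefSeq table, whereas the counts were made on mm9.
Hist1h1e (H1f4), GRCm38 chr13:23622559-23622708, minus strand: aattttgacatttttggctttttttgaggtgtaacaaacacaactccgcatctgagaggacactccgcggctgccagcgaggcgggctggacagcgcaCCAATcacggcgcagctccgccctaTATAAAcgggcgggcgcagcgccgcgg
Hist2h2bb (H2bc18), GRCm38 chr3:96269550-96269699, plus strand: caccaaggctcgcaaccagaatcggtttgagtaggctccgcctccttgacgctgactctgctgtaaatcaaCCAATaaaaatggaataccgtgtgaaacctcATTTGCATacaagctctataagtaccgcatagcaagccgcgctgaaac
Hist1h4d (H4c4), GRCm38 chr13:23581418-23581567, plus strand: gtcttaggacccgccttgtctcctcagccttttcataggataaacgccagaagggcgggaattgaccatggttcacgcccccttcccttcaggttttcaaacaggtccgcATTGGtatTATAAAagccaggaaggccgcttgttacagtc

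Gene counts per library ranged from 12721979 to 24916079. Knockout replicate 2 stood apart: 47.5% of its listed read pairs fell outside annotated genes against 12.3% to 18.1% elsewhere, its Malat1, a nuclear non-coding RNA, stood at 13718 CPM against 1254 to 3073 CPM, and its summed skeletal muscle markers at 985 CPM against 105 to 280 CPM. Results are therefore given with and without it. Knockout replicates 1 and 3 in turn exceeded every wild type library in Rn45s, a ribosomal RNA sequence, at 35.1% and 30.02% against 16.2% to 20.7% of gene counts. They also did so in pairs with more than 1 alignment, at 30.3% and 27.7% against 18.4% to 20.99%. Without knockout replicate 2, genotype and these library traits cannot be told apart. All 9 palatal mesenchyme markers reached 1 CPM in every library. Their sum was 1497 to 1540 CPM in wild type and 1668 to 1919 CPM in knockout libraries, while all 4 epithelial markers summed to 307 to 386 against 158 to 301 CPM and all 3 endothelial markers to 187 to 208 against 156 to 168 CPM. None of these sums overlapped between the groups, and their part in the histone results was not tested. Of all tested single genes, 12.3% did not overlap and were higher and 11.2% lower. Single mesenchyme markers went both ways. Prrx1, Msx1, Pdgfra and Shox2 had log2 fold changes of 0.44, 1.06, 0.15 and 0.0028. Those of Osr2, Barx1, Meox2, Tbx22 and Twist1 were -0.12, -0.053, -0.33, -0.25 and -0.43. The blood, muscle and neuron and glia sums overlapped, and the macrophage sums met at 21.3 CPM. With 6 libraries 0 single markers passed the threshold, and without knockout replicate 2 the epithelial Cdh1 was lower (edgeR, adjusted p = 0.0483). The 3 germ cell markers summed to 0.269 to 2.14 CPM, and 1 of them had no count. Mll2, the older symbol of the targeted Kmt2d, was measured at 197, 211 and 171 CPM in wild type against 254, 539 and 193 CPM in knockout libraries (edgeR quasi-likelihood test, adjusted p = 0.368). Counts summed over all exons do not check the deletion.

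Histone genes took few reads in each library. All 68 together had 2544, 2102 and 2615 counts in wild type libraries against 3607, 1397 and 3304 counts in knockout libraries. Per 1000000 gene counts the wild type had 102.1, 101.1 and 119.1, against 190.8, 109.8 and 163.5 for the knockout. The 95% Wilson intervals, which cover counting error only, ran for example from 114.6 to 123.7 in wild type replicate 4 and from 104.2 to 115.7 in knockout replicate 2. As CPM, here counts scaled by the normalised library size, the sum was 90.5, 94.2 and 113 for wild type against 228, 106 and 183 for knockout libraries. Knockout replicates 1 and 3 lay above every wild type library and knockout replicate 2 lay among them. The means were 99.1 ± 11.8 and 172 ± 61.9 CPM (SD, n = 3 each), a 1.74-fold ratio that was 2.07-fold without knockout replicate 2 and 1.07-fold in that library alone. In bulk tissue, a change in the number of cells of a type and a change in RNA per cell cannot be told apart.

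**Figure D1:**
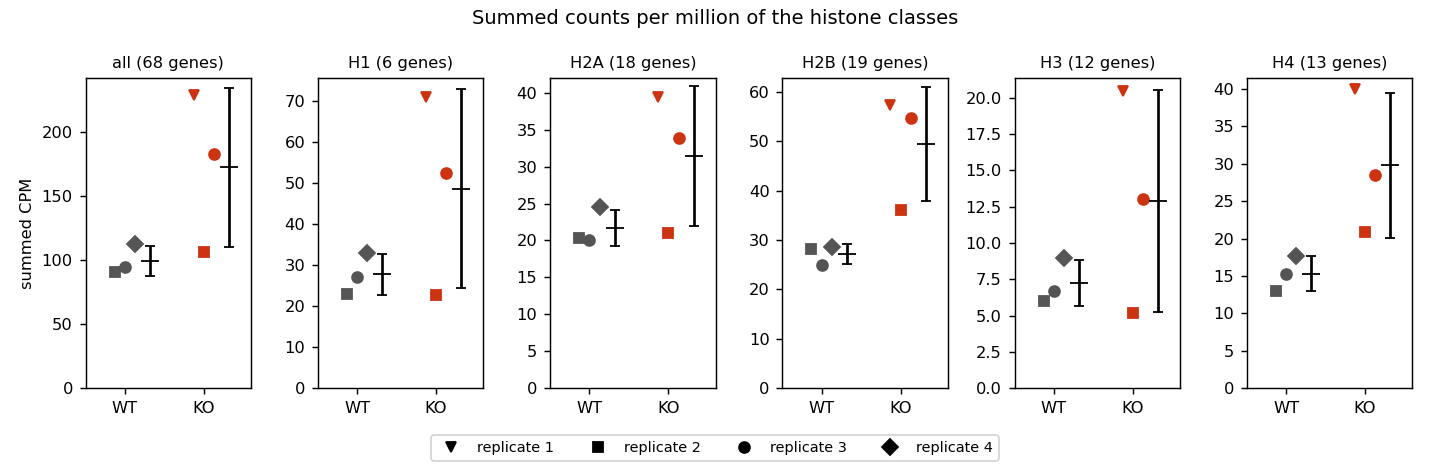
Summed CPM (y axis, from 0, a separate scale per panel) of all histone genes and of each class in wild type (grey) and knockout (red) libraries, with symbols for replicate numbers and the mean ± SD beside them. Knockout replicates 1 and 3 lie above all wild type libraries in each panel, and replicate 2 lies within or below the wild type range for all genes together and for H1, H2A and H3.

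No histone gene passed the threshold in the comparison of all 6 libraries. Of the 48 members with enough counts to test, 0 rose and 0 fell at an adjusted p of 0.05 (edgeR quasi-likelihood test, adjusted over 14233 genes), where 0.0984% of all genes were higher and 0.436% lower. The smallest adjusted p was 0.0700, that of Hist1h4a. At an unadjusted p under 0.05, 24 of the 48 were higher and 0 lower, where 7.51% of all genes were higher and 6.69% lower. Positive log2 fold changes were found in 42 of 48, against 51.5% of all genes, and the median was 1.10, against 0.011 over all genes. In 17 of 48 all knockout libraries lay above all wild type libraries, against 12.3% of all genes, and in 0 of 48 below, against 11.2%. DESeq2 gave an adjusted p to 55 members and 15562 genes, of which 0.925% were higher and 2.02% lower. It called 4 members higher and 0 lower, Hist1h1e, Hist1h4a, Hist1h4d and Hist2h2be (adjusted p = 0.0405, 0.000927, 0.00274 and 0.0198).

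The single knockout libraries differed. Above the highest wild type value lay 43 of the 48 tested members in knockout replicate 1 and 40 in knockout replicate 3, but 18 in knockout replicate 2, in which 19 lay below the lowest. Over all tested genes the share above was 35.5% in knockout replicate 1, 41.2% in replicate 2 and 34.99% in replicate 3. In knockout replicate 2, 43.2% of all tested genes lay below the lowest wild type value, against 39.6% of the members, so both shares of the members were near those of all genes. Without knockout replicate 2, 7 of 52 tested members rose and 0 fell (edgeR, adjusted p under 0.05), where 0.547% of all 14450 genes rose and 1.57% fell. The risen genes were Hist1h1b, Hist1h1d, Hist1h1e, Hist1h3f, Hist1h4a, Hist1h4d and Hist2h2be. Positive log2 fold changes were then found in 51 of 52, with a median of 1.42 against 0.016 over all genes, and 40 of 52 had an unadjusted p under 0.05 and were higher and 0 lower, against 7.22% and 9.27% of all genes.

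**Figure D2:**
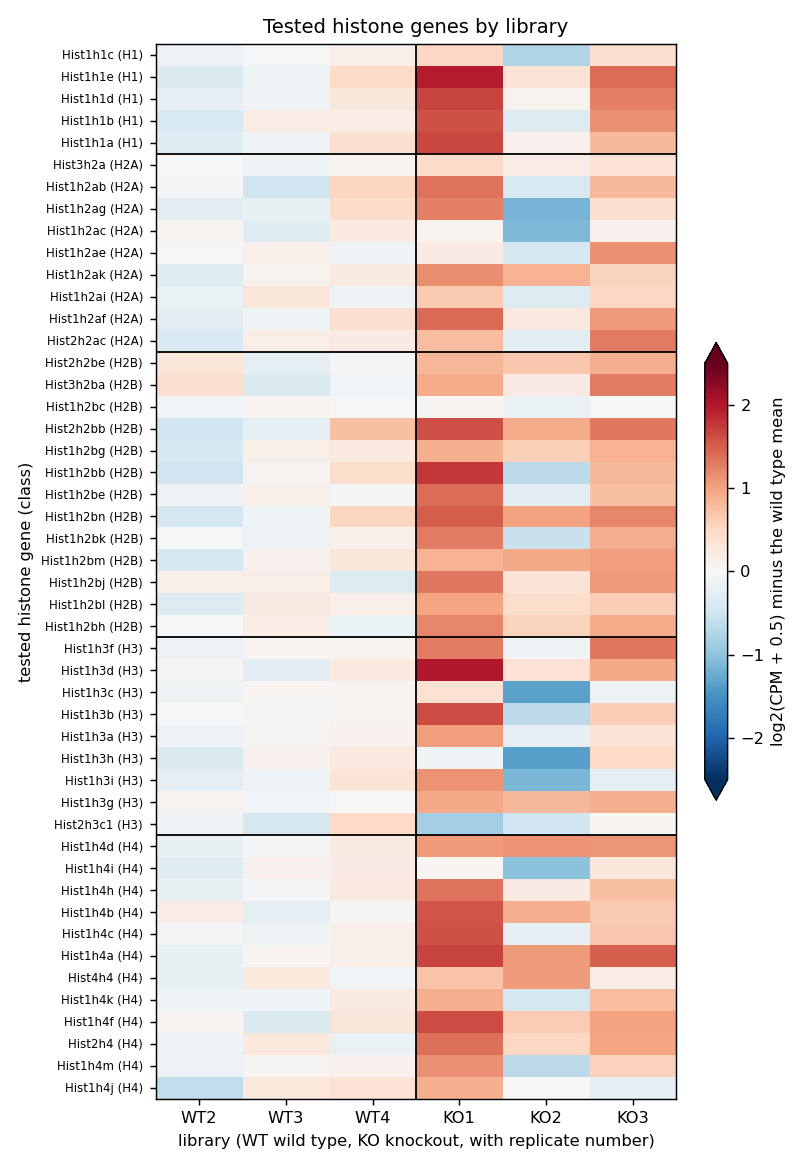
Colours give log2(CPM + 0.5) minus the wild type mean for the 48 tested histone genes (rows, grouped by class) in the 6 libraries (columns). Most rows are red in knockout replicates 1 and 3, while replicate 2 has 18 genes (37.5%) above and 19 (39.6%) below the wild type range, against 41.2% and 43.2% of all tested genes.

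The linker histone genes, as a sum, lay above the wild type in knockout replicates 1 and 3 and just below it in replicate 2. Their summed level was 23.1, 27.2 and 32.8 CPM in the wild type and 70.9, 22.6 and 52.4 CPM in knockout replicates 1, 2 and 3. All 5 tested H1 genes had positive log2 fold changes with a median of 1.12. Of these, 3 were higher at an unadjusted p under 0.05, against 7.51% of all genes. Hist1h1e, a main somatic H1, stood at 2.99, 3.63 and 5.68 CPM in the wild type and 17.02, 5.15 and 11.3 CPM in knockout replicates 1, 2 and 3. Replicates 1 and 3 lay well above the wild type and replicate 2 within it, which gave a log2 fold change of 1.45 with SE 0.44 (adjusted p = 0.255). Hist1h1d, another somatic H1, was measured at 3.59, 3.94 and 5.21 CPM against 14.7, 4.47 and 10.8 CPM, at a log2 fold change of 1.24 with SE 0.41 (adjusted p = 0.279). Here too knockout replicate 2 lay within the wild type range and the other two above it. Without knockout replicate 2, Hist1h1e rose by 1.78, Hist1h1d by 1.58 and Hist1h1b by 1.49 on the log2 scale (adjusted p = 0.0188, 0.00703 and 0.0191 in edgeR). Hist1h1c, an H1 gene with known polyadenylated transcripts, stood at 12.1, 13.5 and 14.6 CPM in the wild type and 19.2, 7.72 and 17.7 CPM in the knockout. It was the lowest of all libraries in knockout replicate 2, with a log2 fold change of 0.16 with SE 0.31 (adjusted p = 0.832). The testis gene Hist1h1t had 9 counts in all and was not tested.

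H2A genes had the smallest difference of the classes as a sum. They totalled 20.4, 20.1 and 24.5 CPM in the wild type and 39.4, 20.96 and 33.8 CPM in knockout replicates 1, 2 and 3, a 1.45-fold ratio of means. Of 9 tested H2A genes, 8 had positive log2 fold changes, and the median was 0.71. At an unadjusted p under 0.05, 3 were higher, against 7.51% of all genes. Hist3h2a, which lies outside the main cluster and has polyadenylated transcripts, held most of the H2A counts. It stood at 13.7, 12.6 and 14.6 CPM in the wild type and 19.1, 15.6 and 17.7 CPM in the knockout. The groups did not overlap, but the step was small, at a log2 fold change of 0.36 with SE 0.14 (adjusted p = 0.326). Hist1h2ak, at the smallest p of the class, was measured at 0.320, 0.583 and 0.689 CPM against 1.77, 1.36 and 0.994 CPM (log2 fold change 1.38, SE 0.45, adjusted p = 0.278). All 3 knockout libraries lay above the wild type, on 102 counts in all. The other H2A genes of high count, Hist1h2ab and Hist1h2ag, overlapped between the groups, with log2 fold changes of 0.89 and 0.59 (SE 0.56 and 0.68, adjusted p = 0.477 and 0.698). Hist1h2ab stood at 1.28, 0.807 and 2.15 CPM in wild type against 4.18, 0.908 and 2.71 CPM in knockout libraries. Hist1h2ag stood at 0.997, 1.08 and 1.98 CPM against 3.80, 0.303 and 1.88 CPM. In both, knockout replicate 2 was the lowest knockout library and replicate 1 the highest of all 6.

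H2B genes separated the groups as a sum. Their total was 28.1, 24.9 and 28.6 CPM in the wild type and 57.4, 36.2 and 54.7 CPM in the knockout, so that knockout replicate 2 lay above the wild type as well, and the ratio of means was 1.82-fold. Of 13 tested, 12 had positive log2 fold changes with a median of 1.147. At an unadjusted p under 0.05, 9 were higher, against 7.51% of all genes. Without overlap between groups 8 were higher, against 12.3% of all genes. Hist2h2be, an H2B gene of the chromosome 3 cluster with polyadenylated transcripts, stood at 9.54, 6.36 and 7.32 CPM in the wild type and 13.98, 12.4 and 14.8 CPM in knockout replicates 1, 2 and 3. Every knockout library lay above every wild type library, at a log2 fold change of 0.83 with SE 0.19 (adjusted p = 0.156, and 0.0460 without knockout replicate 2). Hist3h2ba was measured at 6.90, 3.76 and 4.78 CPM against 9.997, 5.83 and 12.9 CPM, and knockout replicate 2 lay within the wild type range (log2 fold change 0.90, SE 0.34, adjusted p = 0.323). Hist1h2bc, known for a polyadenylated form, was level, at 5.84, 6.54 and 6.16 CPM in the wild type and 6.39, 5.45 and 6.19 CPM in the knockout. Its log2 fold change of -0.04 had an SE of 0.18 (adjusted p = 0.933). Hist2h2bb, whose octamer is printed above, stood at 0.641, 0.851 and 2.20 CPM in the wild type and 4.43, 2.57 and 3.54 CPM in the knockout (log2 fold change 1.53, SE 0.48, adjusted p = 0.273). The remaining H2B genes tested were all positive.

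H3 genes had the lowest sum, and their log2 fold changes had the widest range of the 5 classes. The total was 6.02, 6.72 and 8.998 CPM in the wild type and 20.5, 5.15 and 13.04 CPM in knockout replicates 1, 2 and 3, where replicate 2 was the lowest library of all. Of 9 tested H3 genes, 6 had positive log2 fold changes, which ran from -0.91 for Hist2h3c1 to 1.90 for Hist1h3g, with a median of 0.80. Hist1h3g was measured at 0.249, 0.179 and 0.215 CPM in the wild type and 0.886, 0.757 and 0.829 CPM in the knockout. The 3 knockout libraries lay close together above the wild type, on 55 counts in all (SE 0.48, adjusted p = 0.190). Hist1h3d stood at 0.676, 0.448 and 0.861 CPM against 4.11, 0.984 and 1.71 CPM (log2 fold change 1.78, SE 0.57, adjusted p = 0.278). Hist1h3f stood at 0.854, 1.08 and 1.08 CPM against 3.16, 0.908 and 3.26 CPM (log2 fold change 1.31, SE 0.48, adjusted p = 0.317). Without knockout replicate 2 it rose by 1.68 on the log2 scale (adjusted p = 0.0277 in edgeR). Hist1h3c, by contrast, stood at 1.35, 1.61 and 1.64 CPM against 2.15, 0.303 and 1.33 CPM, with 1 knockout library above and the other two below the wild type (log2 fold change -0.25, SE 0.53, adjusted p = 0.850).

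H4 genes held the 2 smallest p-values of the family. Their total was 12.96, 15.3 and 17.6 CPM in the wild type and 40.05, 20.8 and 28.6 CPM in the knockout, without overlap, a 1.95-fold ratio of means. Of 12 tested, 11 had positive log2 fold changes with a median of 1.06. At an unadjusted p under 0.05, 6 were higher, against 7.51% of all genes. Without overlap between groups 5 were higher, against 12.3% of all genes. Hist1h4a stood at 0.569, 0.762 and 0.818 CPM in the wild type and 3.42, 2.04 and 2.93 CPM in knockout replicates 1, 2 and 3. The groups lay far apart in each library, at a log2 fold change of 1.97 with SE 0.34 (adjusted p = 0.0700, and 0.0144 without knockout replicate 2). Hist1h4d was measured at 1.67, 1.93 and 2.41 CPM against 4.68, 4.92 and 4.81 CPM. Its knockout libraries had an SD of 0.119 CPM (n = 3), replicate 2 included, on only 74, 65 and 87 counts. The log2 fold change was 1.26 (SE 0.24, adjusted p = 0.0904, and 0.0492 without knockout replicate 2). Hist1h4h gave 1.49, 1.70 and 2.20 CPM against 5.31, 2.12 and 3.31 CPM (log2 fold change 1.005, SE 0.38, adjusted p = 0.323). Hist1h4i stood at 2.71, 3.76 and 4.05 CPM against 3.61, 1.44 and 4.31 CPM, with groups that overlapped and a log2 fold change of -0.14 with SE 0.39 (adjusted p = 0.881). Hist4h4, the single gene on chromosome 6, stood at 0.819, 1.30 and 0.947 CPM against 1.96, 2.65 and 1.22 CPM, highest in knockout replicate 2 (log2 fold change 0.91, SE 0.40, adjusted p = 0.354).

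**Figure D3:**
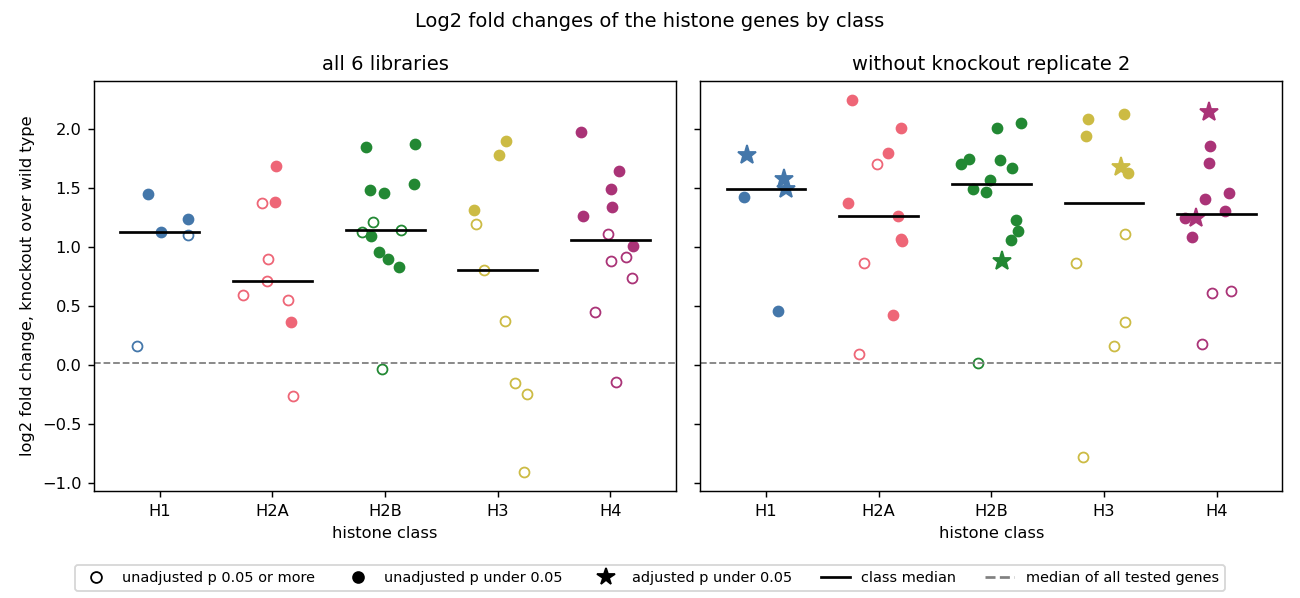
Log2 fold change of knockout over wild type (y axis) for each tested histone gene by class, with all 6 libraries (left) and without knockout replicate 2 (right). Stars passed the adjusted threshold, 0 on the left and 7 on the right, black lines are class medians and the dashed line is the median of all tested genes.

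As a sum, members with known polyadenylated transcripts differed less than the rest, but not each of them did. The 5 such genes, Hist1h1c, Hist1h2bc, Hist2h2be, Hist3h2a and Hist4h4, took 36.4% of all histone counts, at 41.999, 40.3 and 43.5 CPM in the wild type and 60.7, 43.8 and 57.6 CPM in knockout replicates 1, 2 and 3. The other 63 summed to 48.5, 53.9 and 69.1 CPM in the wild type and 168, 61.9 and 125 CPM in the knockout. The ratio of means was 1.29-fold for the 5 and 2.07-fold for the 63, and 1.41-fold and 2.56-fold without knockout replicate 2, with no test between them. In knockout replicate 2 alone the sums were 1.04-fold and 1.08-fold the wild type mean. Singly, Hist1h1c, Hist1h2bc and Hist3h2a had log2 fold changes of 0.16, -0.04 and 0.36. Those of Hist2h2be and Hist4h4, 0.83 and 0.91, were nearer the median of 1.10 over all tested members. The 21 members whose transcript ended within 100 bases of the stem-loop had a median log2 fold change of 1.17 over 14 tested genes. The 22 whose transcript went on for longer had one of 0.96 over 19 and held 55.7% of the counts. Hist1h1c, Hist3h2a and Hist4h4 were among these longer ones, so this split is not separate from the first. The 25 without a stem-loop match had a median of 1.10 over 15 tested genes. No test was made between these groups.

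Rn45s, which carries ribosomal RNA sequence, took 16.2%, 19.8% and 20.7% of gene counts in wild type libraries against 35.1%, 18.6% and 30.02% in knockout libraries. Knockout replicate 2 was in the wild type range for Rn45s and for the histone sum, and the other knockout libraries were above it in both. Set against 1000 counts of Rn45s, the histone genes had 0.630, 0.510 and 0.575 counts for wild type against 0.543, 0.591 and 0.545 for knockout libraries. On that scale the groups overlapped, with means of 0.572 ± 0.0601 and 0.560 ± 0.0274 (SD, n = 3 each). The 63 other histone genes had means of 0.328 ± 0.0318 in the wild type and 0.373 ± 0.0263 in the knockout. For the 5 with known polyadenylated transcripts the means were 0.244 ± 0.0416 and 0.187 ± 0.0520. The level total thus held a higher and a lower mean, with overlapping libraries in both and no test. By class on that scale, the knockout mean was lower for H1 (0.151 against 0.159), H2A (0.104 against 0.125) and H3 (0.0388 against 0.0414) and higher for H2B (0.167 against 0.159) and H4 (0.0990 against 0.0877), so the order of the groups in the sums of H1, H2A and H3 turned with this scaling. The RNA component of RNase MRP, Rmrp, stood at 10.8, 15.4 and 21.01 CPM in the wild type and 69.6, 26.8 and 33.9 CPM in the knockout (log2 fold change 1.47, SE 0.39, adjusted p = 0.209). Of 120 listed genes of non-polyadenylated and nuclear RNA, Rn45s, Rmrp and Malat1 among them, 27 could be tested and 0 passed the threshold in edgeR. Positive log2 fold changes were found in 25, against 51.5% of all genes, with a median of 0.89. DESeq2 with 6 libraries called Rmrp higher (adjusted p = 0.00579) but not Rn45s (adjusted p = 0.0927). Lars2, which is not on the list, was also called higher (DESeq2, adjusted p = 0.00554). DESeq2 values of the other listed genes are not given here. In the edgeR fit without knockout replicate 2, 22 of 29 listed genes were positive, against 53.3% of all genes, with a median of 0.52. In that fit Rn45s rose by 1.10 on the log2 scale (edgeR, adjusted p = 0.0424) and no other gene of the list passed. The 114 snoRNA and scaRNA genes, most of them inside introns of other genes, summed to 29.6, 33.5 and 24.3 CPM in the wild type and 53.2, 85.1 and 34.9 CPM in the knockout, highest in knockout replicate 2, unlike the histone sum. The part of RNA carried over without a poly(A) tail in the histone difference was not tested.

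**Figure D4:**
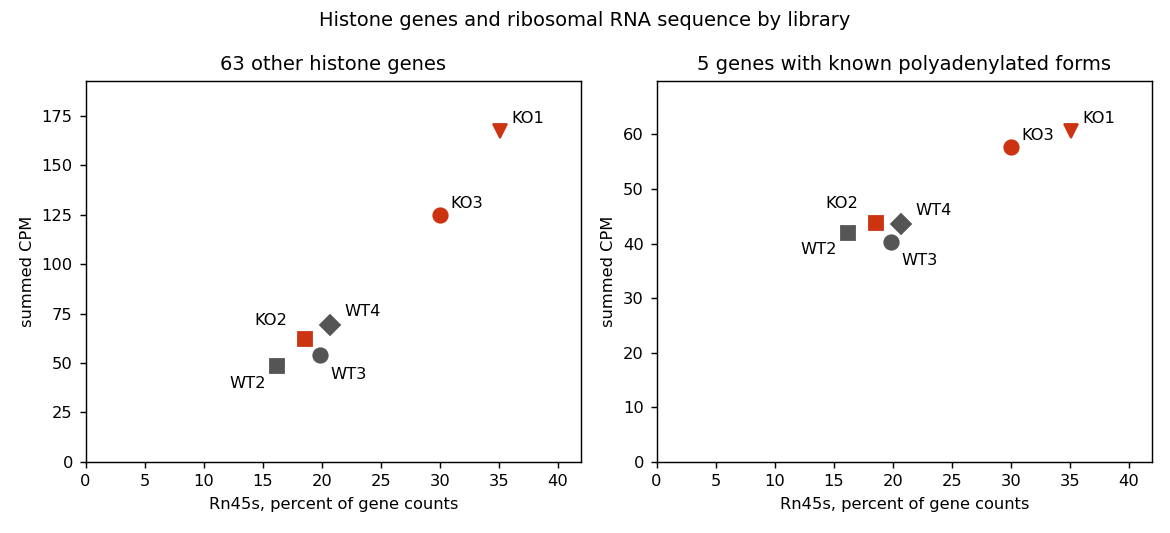
Summed CPM (y axis, from 0) of the 63 other histone genes (left) and of the 5 with known polyadenylated transcripts (right) against the share of Rn45s in gene counts (x axis) in the 6 libraries, wild type grey and knockout red. Knockout replicates 1 and 3, with 35.1% and 30.02% Rn45s, lie highest in both panels, and knockout replicate 2 lies among the wild type libraries on the left and, at 43.8 CPM, just above them on the right.

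Near-identical copies limit what each count shows. The reads were 25 bases long at each end, and pairs with more than 1 alignment were set aside by the counting, 18.4% to 20.99% of listed pairs in the wild type and 30.3%, 18.1% and 27.7% in knockout replicates 1, 2 and 3. The share of a member's 25-base words that occurred in no other GENCODE gene outside its own locus ran from 0% for Hist2h2aa2 to 99.7% for Hist1h1t. By class the median of this share was 93.5% for H1, 22.3% for H2A, 48.6% for H2B, 36.9% for H3 and 49.5% for H4. Of 8 members without a count in any library, 6 had under 15% own words, Hist1h2ap, Hist1h2bq, Hist1h2br, Hist1h4n, Hist2h2aa1 and Hist2h2aa2. The other two, Hist1h2aa and Hist1h2ba, are testis genes with 85.3% and 53.3%. Low own sequence did not always mean no count: 8 of 18 members under 15% were tested, among them Hist1h3h, with 4.39% and 93 counts. A count of 0 allows up to 0.107 to 0.227 CPM of uniquely aligned pairs in the 6 libraries, by the floor of 3 counts, and sets no such limit on the level of a gene with little own sequence. The 22 tested members with at least 50% own words had a median log2 fold change of 1.01 and the 26 with less had 1.17, against 1.10 for all 48. Without knockout replicate 2 these medians were 1.19 and 1.52. Other annotated genes overlapped 24 of the 68 members, Hist1h1e, Hist1h2ab, Hist1h2ag, Hist1h2ak, Hist2h2bb, Hist2h3c1 and Hist3h2a among those described, and the strand setting of the counting is not known here, so their reads cannot be told apart with certainty.

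**Figure D5:**
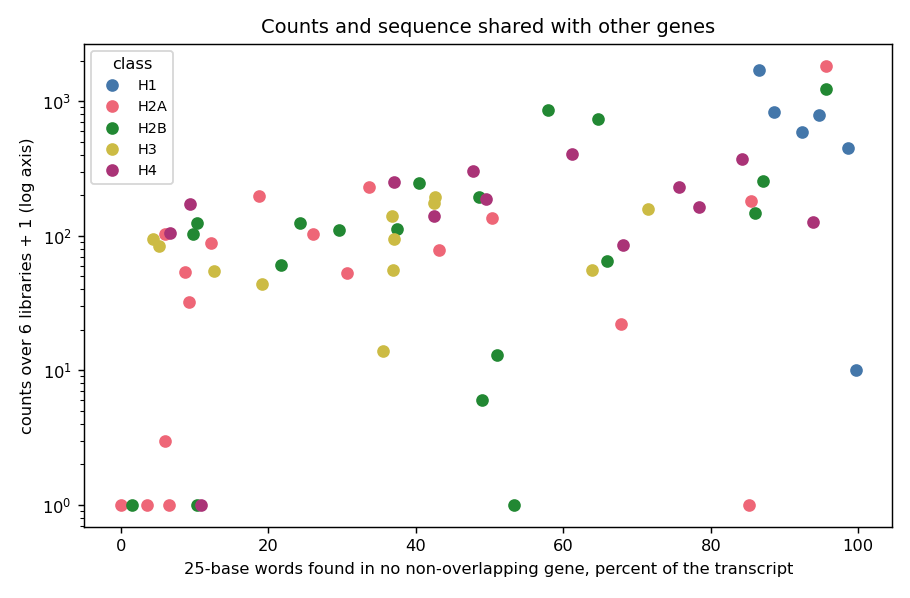
Counts over 6 libraries plus 1 (y axis, log scale) against the percent of a gene's 25-base words found in no non-overlapping gene (x axis) for the 68 histone genes, coloured by class. H1 genes lie at 86.6% to 99.7%, and 6 of the 8 genes without a count lie under 15%.

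Per kilobase of the longest GENCODE transcript, the highest mean levels in the wild type were 8.59 CPM for Hist1h1c, 8.39 for Hist3h2ba and 6.34 for Hist3h2a. In the knockout the highest were 15.6 CPM per kilobase for Hist3h2ba, 9.55 for Hist1h1c and 9.52 for Hist1h1b, so the order of the first pair turned. Hist2h2bb stood at 3.23 in the wild type and 9.22 in the knockout. These levels depend on the annotated ends and on the own sequence of each gene, and the transcript of Hist1h1d, for example, was annotated at 7425 bases.

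Genes of histone supply other than the members and the variants described below had 0 genes past the threshold in edgeR. Slbp stood at 83.6, 81.7 and 87.8 CPM in the wild type and 83.6, 62.4 and 85.5 CPM in the knockout (log2 fold change -0.13, SE 0.14, adjusted p = 0.671). Npat, the co-activator at histone gene clusters, stood at 64.5, 57.2 and 55.9 CPM against 59.6, 90.7 and 66.7 CPM (adjusted p = 0.440). In knockout replicate 2, the library with the lowest histone sum of the knockout, Slbp was lowest and Npat highest. Of 20 genes of histone mRNA 3′ end processing and decay, 16 of histone gene transcription, 21 histone chaperones, 40 of S phase and 21 of G2 and mitosis, all tested, 0 passed the threshold in either direction with 6 libraries or without knockout replicate 2 (edgeR). At an unadjusted p under 0.05 these lists had 1, 3, 1, 0 and 0 genes higher and 0, 1, 0, 0 and 0 lower with 6 libraries. Of all genes, 7.51% were higher and 6.69% lower at this cut. Their median log2 fold changes were -0.036, 0.071, -0.035, -0.13 and -0.045 with 6 libraries. The medians without knockout replicate 2 were 0.017, 0.048, 0.056, -0.0068 and 0.053, so the sign turned for 3′ end processing, chaperones and mitosis. The smallest p belonged to Mif4gd, a partner of Slbp (0.54, adjusted p = 0.327), Ccne1, cyclin E1 of the G1 to S transition (-0.39, adjusted p = 0.280), Ubn2 of the HIRA complex (0.82, adjusted p = 0.327), the DNA polymerase Pole (0.27, adjusted p = 0.372) and Cenpf, a kinetochore protein (0.14, adjusted p = 0.526). The log2 fold changes of Ubn2 and Pole rested on knockout replicate 2 and were 0.31 and 0.14 without it (edgeR, adjusted p = 0.174 and 0.450).

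Replication-independent histone variants, most of which are made throughout the cell cycle from polyadenylated transcripts, had negative log2 fold changes. Of 11 tested, 0 had a positive log2 fold change, the median was -0.099 and 0 passed with 6 libraries in edgeR. Without knockout replicate 2, however, 8 of 11 were positive and the median was 0.063. H2afv, a gene for the variant H2A.Z, stood at 71.3, 80.9 and 89.8 CPM in the wild type and 44.0, 26.5 and 46.7 CPM in knockout replicates 1, 2 and 3. Every knockout library lay below every wild type library, at a log2 fold change of -1.04 with SE 0.22 (edgeR, adjusted p = 0.116). DESeq2 with all 6 libraries called H2afv lower, at a log2 fold change of -1.06 (adjusted p = 0.000479). Without knockout replicate 2 it fell by 0.84 on the log2 scale (edgeR, adjusted p = 0.00462).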

How the data were processed

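RNA was sequenced in 6 libraries, 3 per group, with groups and numbers taken from sample titles. For each library the authors deposited a table of raw counts, with genes given by symbol. Per the submitters' processing notes, TopHat2, SAMtools and HTSeq were used with the mm9 build. The annotation and the strand setting were not given in the sources used here. Lines for uncounted reads were left out of library sizes. The labels call the samples biological replicates without naming litters, so p-values measure the spread between these samples.

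Members were found by symbol in all 6 libraries. All genes were filtered by filterByExpr, scaled by TMM and tested with edgeR 4.0.16 in R 4.3.3 (quasi-likelihood, robust, Benjamini-Hochberg at 0.05). The fit was tested on simulated data with the same spread for all genes and no library like knockout replicate 2. That run therefore does not show how the fit behaves with such a library. Alternatives used limma 3.58.1 and DESeq2 1.42.0. Gene sums and lists were described without a test. Named were, per class, members past the threshold, the 3 highest by CPM, the smallest p and 5 genes with known polyadenylated transcripts; per related list, the smallest p; and Slbp, Npat and Mll2. Other members given by value (Hist1h1b, Hist2h2bb, Hist2h3c1) were chosen after their values were seen. The members and lists were chosen with earlier results of these data known. Counts of shared 25-base words used GENCODE M21 transcripts, which are not the annotation of the counts. Protein sequences were not used here.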

Additional observations from a re-analysis of the deposited data

How the results depend on the processing

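The number of members past the threshold was 0 higher and 0 lower with all 6 libraries, and 0 members were lower in any alternative. With edgeR, median-of-ratios or upper-quartile size factors, other filters, removal of Rn45s and Lars2 and the earlier quasi-likelihood method, and with limma voom, 0 members were higher. DESeq2 gave 4 members, voom with sample quality weights, chosen after seeing the data, 11, and leaving out 1 library 0 to 7 (7 without knockout replicate 2, 0 otherwise). Over all genes the 14 higher and 62 lower became 144 and 314 with DESeq2, 110 and 206 with quality weights, 9 higher with voom, and 0 to 79 higher and 0 to 227 lower with 1 library left out. The median log2 fold change of the members, 1.10, lay between 0.76 and 1.43. Samples shared the numbers 2 and 3 across groups, but the labels do not say that these pair them, so they were not taken to. Correlations of deviations were 0.239 and -0.153 for these numbers and -0.426 to 0.349 for unlike numbers. With 3 libraries per group these values cannot show whether samples were paired. The replicate block gave 1 member higher, Hist2h2bb, and 103 genes higher and 195 lower in all, and a median of 0.76. Wild type replicate 4 and knockout replicate 1 share their number with no other library. The block fit therefore takes its group difference from replicates 2 and 3 only, knockout replicate 2 among them. Scaled to Rn45s counts, an alternative chosen after seeing the data, the log2 ratio of sums went from 0.80 to -0.031 for all members, 0.81 to -0.075 for H1, 0.53 to -0.27 for H2A, 0.86 to 0.075 for H2B, 0.83 to -0.093 for H3 and 0.96 to 0.18 for H4. With other size factors, raw totals or 1 library left out these ratios stayed positive (0.54 to 1.05 for all members in the last). Some members changed sign. With 1 library left out, Hist1h2bc (-0.038 with all) ran from -0.082 to 0.018, Hist1h1c (0.16) from -0.061 to 0.46, Hist1h2ag (0.59) from -0.20 to 1.05, Hist1h3c (-0.25) from -0.81 to 0.16 and Hist1h4i (-0.14) from -0.45 to 0.18. With quality weights Hist1h2bc stood at 0.022, Hist1h3c at 0.12 and Hist1h4i at 0.086, and with the replicate block Hist1h1c at -0.12 and Hist1h2ag at -0.13. The cause of these changes was not tested. Low counts limit the family: 21 of 68 members had 1 to 99 counts and 8 none over all libraries.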
